A study of Mus musculus with 24 samples.

Results

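Transcripts of 10 genes for cyclins and inhibitors of cyclin-dependent kinases (CDKs), most of which act in the G1 phase of the cell cycle, were read from RNA-seq counts of whole mouse kidneys. They are Cdkn1a, Cdkn1b and Cdkn1c, which encode the Cip/Kip inhibitors p21, p27 and p57, Cdkn2a, Cdkn2b and Cdkn2c, which encode inhibitors of the INK4 family, the D-type cyclins Ccnd1 and Ccnd2, the E-type cyclin Ccne1, and Ccng1, which encodes cyclin G1. The members are the rows of the count table that carry these gene symbols. Each symbol occurred once, so 10 of the 54532 genes in the table were taken. All 10 had a mean of at least -3 on the log2 CPM scale (CPM, counts of a gene relative to all counts of its library) and so were among the 22570 genes tested.

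D-type cyclins activate CDK4 and CDK6 in G1, and cyclin E activates CDK2 at the step into S phase. INK4 proteins bind CDK4 and CDK6 and keep D cyclins from activating them, whereas Cip/Kip proteins bind cyclin-CDK complexes and chiefly restrain CDK2. Cdkn1a and Ccng1 are classic targets of the p53 tumour suppressor, and Cdkn2a makes a pair of proteins, p16INK4A and p19ARF, from overlapping reading frames. Renal tubules become largely quiescent as the kidney matures, and p57 is known in the kidney as a product of mature podocytes. In polycystic kidney disease the epithelium that lines the cysts re-enters the cell cycle.

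The 24 libraries came from mice of 18 days on a C57BL/6 background (C57BL/6 J in the study's methods), and every one of them had an RC allele of Pkd1, the polycystin-1 gene, which bears a missense change and has reduced function. Groups labelled control were RC/+ (n = 3), RC/+ D18 (n = 3) and RC/+ D53 (n = 3), and those labelled cystic were RC/- (n = 5), RC/- D18 (n = 5) and RC/- D53 (n = 5). In D18 (founder 3) and D53 (founder 2) CRISPR/Cas9 had removed the miR-17 motif in the 3′ UTR of the RC allele, and each line goes back to 1 founder. No founder is given for the unedited RC/+ and RC/- libraries. Effects of the edit and of founder family therefore cannot be told apart where edited and unedited kidneys are compared. Per the study's methods, the second Pkd1 allele was floxed in every group and was recombined in RC/- mice by Ksp-Cre, which is driven by a cadherin-16 promoter in renal tubules. RC/+ mice had no Cre, so effects of Cre and of the cystic genotype cannot be told apart, and glomeruli, vessels and interstitium of RC/- kidneys keep a floxed allele. The comparisons ask what cystic disease changes in these genes, and how far deletion of the motif changes that.

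Totals per library were 20.4 to 30.8 M counts. All 5 markers of each of the proximal tubule, thick ascending limb and distal tubule, collecting duct, podocytes, endothelium, fibroblasts and macrophages had counts in every group. Presence of counts alone does not establish tissue identity. RC/- D18 replicates 20 to 22 and every RC/- D53 replicate, together libraries 20 to 27, stood apart by skeletal muscle transcripts: the summed level of Acta1, Ckm, Myh4, Tnnt3 and Atp2a1 was 138 to 183 CPM in RC/- D53 and 6.39 to 9.36 CPM in RC/-. The set was recognised from these counts, and no unedited kidney belongs to it. No edited control does either, at 5.70 to 7.81 CPM in RC/+ D18 and 5.78 to 7.07 CPM in RC/+ D53. In RC/- D53 against RC/- and against RC/+ D53, the set and the compared groups thus cannot be told apart. It enters below as a covariate or is left out. The set splits only RC/- D18, so the covariate is estimated from replicates 20 to 22 of that group against its replicates 18 and 19. Adjusted values for RC/- D53, where every library is in the set, extrapolate from that difference.

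Sequences are shown for the elements by which these genes connect to the design, namely the seed of miR-17, the microRNA whose site was deleted, and the element of p53. Mouse miR-17 family members share the seed AAAGUGC (bases 2 to 8, in capitals, RefSeq, GRCm38):
mmu-miR-17-5p: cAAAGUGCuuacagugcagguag
mmu-miR-20a-5p: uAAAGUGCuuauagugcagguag
mmu-miR-93-5p: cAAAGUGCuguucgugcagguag
mmu-miR-106b-5p: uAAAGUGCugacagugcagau

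The reverse complement of this seed, GCACTTT, occurred 1 time in the annotated 3′ UTR of each of 4 members and not in those of the other 6. The matches (in capitals, GENCODE M21, GRCm38, RNA sense) lie in the last exon of each transcript, for Cdkn1a at chr17:29099817-29099846 on the plus strand, Ccnd1 at chr7:144931665-144931694, Ccnd2 at chr6:127129329-127129358 and Ccng1 at chr11:40749390-40749419, the last 3 on the minus strand:
Cdkn1a: cagacctgaataGCACTTTggaaaaatgag
Ccnd1: ttccatttcaaaGCACTTTtggtcagctag
Ccnd2: tccattagaaaaGCACTTTgaaaattttgg
Ccng1: catttcatgaatGCACTTTtaaggtattaa

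Long UTRs hold such a match often. Of genes with a 3′ UTR within 10% of the same length, 12.3% had a match for Cdkn1a, 21.4% for Ccnd1, 39.2% for Ccnd2 and 19.9% for Ccng1. These sites were not edited in any group, and whether miR-17 acts on them was not measured.

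The promoter table (RefSeq, GRCm38, 250 bases before to 50 bases after each start) held windows for 7 members, not including Cdkn1c, Ccnd1 and Ccnd2. A p53 response element of 20 bases, without a spacer and with at most 1 mismatch, was searched for on both strands. It was found in 1 of the 2 windows of Cdkn1a, in the window of Ccng1 and in 0.0883% of all 32851 windows. The element in Cdkn1a begins at base -51 from the start site of that window (chr17:29090923-29090952, plus strand), and that in Ccng1 begins at base -195 (chr11:40755457-40755486, minus strand). The bases of the element are in capitals:
Cdkn1a: ttcagGAACATGTCTTGACATGTTCagccc
Ccng1: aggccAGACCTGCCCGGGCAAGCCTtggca

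Compared with RC/+, RC/- kidneys had more Cdkn2a, Cdkn2b, Cdkn2c, Ccne1 and Cdkn1b and less Cdkn1c. Thus 6 of the 10 members passed (limma-trend, Benjamini-Hochberg adjusted p below 0.05 over all genes), with 5 higher and 1 lower. Of all genes tested, 37.6% passed in this comparison, 25.5% higher and 12.2% lower. The libraries of RC/- and RC/+ did not overlap for 5 members (Cdkn1b, Cdkn1c, Cdkn2a, Cdkn2b and Ccne1), and for 37.6% of all genes. The median log2 fold change (log2FC) was 0.54 over the members and 0.14 over all genes. With TMM factors the latter was 0.01, 17.03% of all genes passed as higher and 17.3% as lower, and 4 members passed, 3 higher and 1 lower. edgeR and DESeq2 also called 4 members.

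With the motif deleted, 5 of these 6 members moved the other way in D18 and 4 in D53. In RC/- D18 against RC/-, 7 members passed, with Cdkn1a, Cdkn2a, Cdkn2b, Cdkn2c, Ccnd2 and Ccne1 lower and Cdkn1c higher, beside 41.2% of all genes (26.9% lower and 14.3% higher, or with TMM factors 19.5% and 19.7%). In RC/- D53 against RC/-, 5 members passed, with Cdkn1a, Cdkn2a, Cdkn2b and Ccne1 lower and Cdkn1c higher, beside 30.2% of all genes (18.9% lower and 11.3% higher, or with TMM factors 13.1% and 14.97%). Libraries did not overlap for 4 members in D18, where 27.8% of all genes were separated, and for Cdkn2a and Cdkn2b in D53, where 18.8% were. Median log2FC values over the members were -0.68 in D18 and -0.33 in D53, and over all genes -0.10 and -0.08. All 3 of these comparisons use the same RC/- libraries.

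Against the controls of their own line, neither group of edited cystic kidneys differed past the threshold in any member. In RC/- D18 against RC/+ D18, limma-trend, edgeR and DESeq2 each called 0 members, 4 had an unadjusted p below 0.05 beside 8.91% of all genes, and 0.266% of all genes were called. In RC/- D53 against RC/+ D53, all 3 tools again called 0 members, 2 had an unadjusted p below 0.05 beside 13.3% of all genes, and 2.60% of all genes were called. Cdkn1b and Cdkn2b had an unadjusted p below 0.05 in both lines. For Cdkn2b the log2FC was 0.80 (95% interval 0.09 to 1.50, adjusted p = 0.483) in D18 and 0.86 (95% interval 0.16 to 1.57, adjusted p = 0.234) in D53. With only RC/- D53 and RC/+ D53 in the model, Cdkn2b passed (adjusted p = 0.0364).

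**Figure D1:**
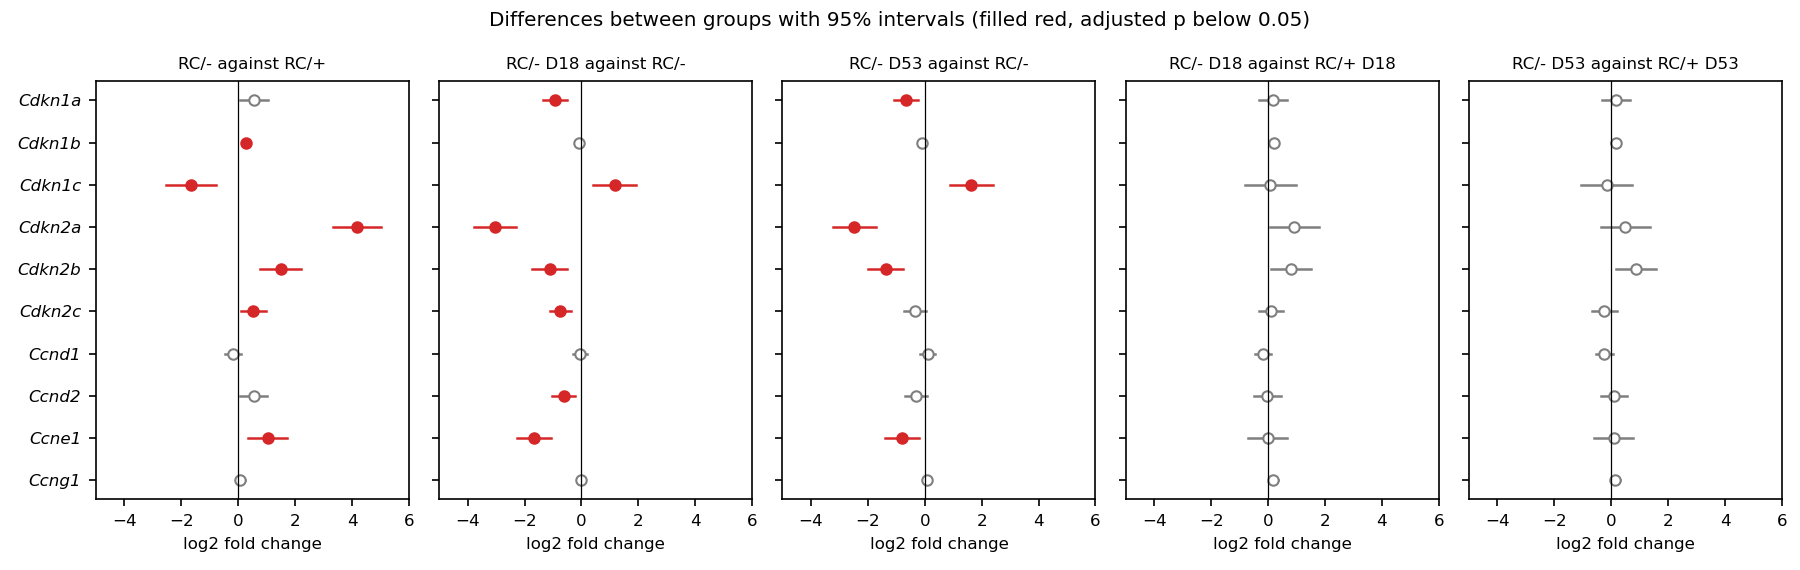
Log2 fold changes (points) with 95% intervals (lines) of the 10 members in 5 comparisons, on the log2 CPM scale. Filled red points passed the threshold: 6 in RC/- against RC/+, 7 when D18 and 5 when D53 cystic kidneys were set against RC/-, and 0 in both comparisons within an edited line.

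Cdkn1c, the gene for p57, was the member that fell in cystic kidneys. It lies at chr7:143458339-143461050 on the minus strand. Its level was 153, 129.5 and 144 CPM in the RC/+ libraries and 98.6, 54.2, 23.95, 34.4 and 40.6 CPM in the RC/- libraries. Every RC/- library was below every RC/+ library, although RC/- replicates spanned a 4.12-fold range. The log2FC was -1.67 (SE 0.43, adjusted p = 0.00338), a mean 3.17-fold lower level.

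Edited cystic kidneys had Cdkn1c at 153, 167, 115, 80.5 and 42.7 CPM in RC/- D18 and at 128, 91.5, 161, 118 and 235 CPM in RC/- D53. Both groups overlapped RC/-, in D53 only through RC/- replicate 13. The log2FC against RC/- was 1.17 (SE 0.37, adjusted p = 0.0142) in D18 and 1.64 (SE 0.37, adjusted p = 0.00153) in D53. Without RC/- replicate 15 the D18 value was 0.94 (adjusted p = 0.0522). Controls of the D18 line varied as widely, with 43.1, 112 and 177 CPM, whereas RC/+ D53 libraries were at 141, 157 and 171 CPM. Gm44732, which shares 30.7% of the exon bases of Cdkn1c on the opposite strand, had at most 4 counts in any library.

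Markers of several cell types moved between the same groups as Cdkn1c. All 5 proximal tubule markers and all 5 of the thick ascending limb and distal tubule passed as lower in RC/- against RC/+, with median log2FC values of -1.35 and -1.76, and as higher in both comparisons of edited with unedited RC/- kidneys. Their summed levels were 1044 to 2752 and 1873 to 3614 CPM in RC/- against 5112 to 5601 and 6006 to 6785 CPM in RC/+, with none at 0. Podocyte markers were examined because p57 is known in these cells. In RC/- against RC/+, 4 of the 5 podocyte markers passed as lower and 1 as higher, with a median log2FC of -0.98. Their summed level was 276 to 396 CPM in RC/-, 540.1 to 549.9 CPM in RC/+, 475 to 667 CPM in cystic D18 and 477 to 589.8 CPM in cystic D53 kidneys, and none of the markers was at 0. The library with the least Cdkn1c, RC/- replicate 15 at 23.95 CPM, had a summed podocyte level of 316 CPM. The control library with the least, RC/+ D18 replicate 7 at 43.1 CPM, had 543 CPM. The library with the most, RC/- D53 replicate 27 at 235 CPM, had 477 CPM. The part of podocytes and tubule cells in the change of Cdkn1c was not tested, and in whole kidney fewer cells of a type cannot be told apart from less RNA per cell.

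Cdkn1a, which encodes p21, lies at chr17:29090976-29100727 on the plus strand. Its level was 31.5, 81.3 and 75.2 CPM in RC/+ and 86.1, 84.7, 76.3, 96.9 and 80.3 CPM in RC/-. The groups overlapped because RC/+ replicate 5 reached the range of RC/-, and RC/+ replicate 4 was far below the other RC/+ libraries. The log2FC of 0.55 (SE 0.23, adjusted p = 0.0665) did not pass. Without RC/+ replicate 5 it was 0.80 (adjusted p = 0.0183), and without RC/+ replicate 6 it was 0.74 (adjusted p = 0.0330).

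Edited RC/- kidneys had less Cdkn1a than RC/- kidneys. RC/- D18 libraries were at 53.1, 43.1, 45.3, 33.8 and 48.01 CPM, all below every RC/- library, a log2FC of -0.94 (SE 0.20, adjusted p = 5.85e-04). RC/- D53 libraries were at 40.8, 45.02, 56.6, 51.05 and 80.6 CPM, and replicate 27 alone reached the range of RC/-. The log2FC was -0.67 (SE 0.20, adjusted p = 0.0140), and with libraries 20 to 27 as a covariate -0.48 (adjusted p = 0.481). Edited control kidneys lay in the same range, at 32.04, 44.8 and 42.1 CPM in RC/+ D18 and 37.6, 56.7 and 50.3 CPM in RC/+ D53.

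Cdkn1b, which encodes p27 and lies at chr6:134920401-134925513 on the plus strand, varied least among the Cip/Kip genes. Its level was 99.5 ± 2.39 CPM in RC/+ (SD, n = 3) and 120.2 ± 5.51 CPM in RC/- (SD, n = 5), with no overlap between the groups. The log2FC of 0.27 (SE 0.075, adjusted p = 0.00578) was 0.13 (adjusted p = 0.158) with TMM factors, so the call rested on scaling by total counts. It did not pass in any comparison of edited with unedited kidneys, with means of 114 ± 13.01 CPM in D18 and 114 ± 5.48 CPM in D53 cystic kidneys (SD over 5 mice).

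Per length, the Cip/Kip family held less Cdkn1c in RC/- than in RC/+. Summed over the 3 genes, its level was 109 ± 4.36 CPM per kb of exon in RC/+ (SD, n = 3) and 75.0 ± 14.1 CPM per kb in RC/- (SD, n = 5). Cdkn1c made up 64.0% ± 6.66 of this sum in RC/+ and 31.2% ± 11.7 in RC/-, and Cdkn1a 16.01% ± 6.69 and 32.5% ± 5.18. The share of Cdkn1c was 56.6% ± 11.7 in D18 and 62.8% ± 6.23 in D53 cystic kidneys (SD over 5 mice). These sums and shares are descriptions and were not tested.

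**Figure D2:**
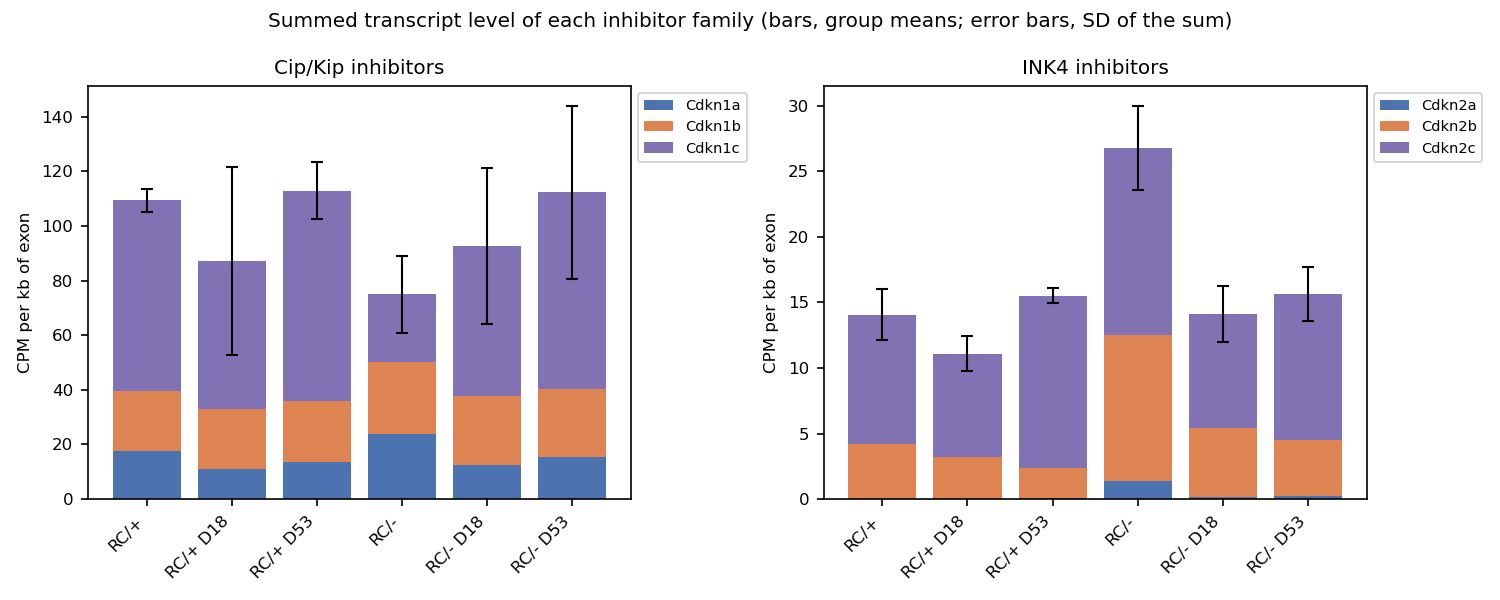
Mean transcript levels in CPM per kb of exon, stacked by gene, for the Cip/Kip (left) and INK4 (right) inhibitors in the 6 groups, with the SD of the sum as error bars. In RC/- the Cip/Kip sum was lowest, at 75.0 CPM per kb, and the INK4 sum highest, at 26.8 CPM per kb.

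Cdkn2a, at chr4:89274471-89294653 on the minus strand, was almost absent outside RC/- kidneys. Its counts were 0, 1 and 0 in RC/+, 1, 1 and 0 in RC/+ D18, and 3, 2 and 5 in RC/+ D53. The RC/- libraries had 29, 32, 43, 47 and 42 counts, above every other library of the series. RC/- D18 had 6, 0, 5, 6 and 2 counts and RC/- D53 10, 6, 6, 10 and 2.

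Pooled over the libraries of a group, 193 counts in RC/- against 1 in RC/+ gave a 117-fold higher rate (exact 95% interval 20.8 to 4649, counting error only). RC/- had a 10.7-fold higher rate than RC/- D18 (6.67 to 18.2) and a 6.67-fold higher rate than RC/- D53 (4.61 to 9.90). The fitted log2FC values were 4.18 (adjusted p = 2.73e-08) for RC/- against RC/+, -3.05 (adjusted p = 2.95e-07) for D18 against unedited RC/- and -2.47 (adjusted p = 1.14e-05) for D53 against unedited RC/-. Their size depends on the prior count, because control libraries had 0 to 5 counts. Gene counts do not separate the transcripts of p16INK4A and p19ARF.

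Within the edited lines Cdkn2a did not pass. RC/- D18 had 19 counts against 2 in RC/+ D18, a ratio of rates of 5.31 (1.28 to 47.1), and RC/- D53 had 34 against 10 in RC/+ D53, a ratio of 1.77 (0.853 to 4.01). All RC/+ D53 libraries had more counts of Cdkn2a than every RC/+ library, 10 against 1 in all, a ratio of 9.95 (1.42 to 432). The fitted log2FC of 1.21 did not pass, and 8.84% of all genes did not overlap between these groups.

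Cdkn2b, the gene for p15INK4B next to Cdkn2a (chr4:89306299-89311039, minus strand), rose in RC/- as well and at a higher level. It was at 2.86, 7.61 and 7.07 CPM in RC/+ and at 12.1, 18.6, 11.96, 18.2 and 16.4 CPM in RC/-. The groups did not overlap, and the log2FC was 1.49 (SE 0.34, adjusted p = 0.00119), a 2.80-fold higher level. RC/- D18 libraries at 6.70, 4.26, 10.1, 5.10 and 10.8 CPM and RC/- D53 libraries at 6.03, 5.05, 5.75, 4.21 and 9.06 CPM all lay below RC/-. The log2FC values against RC/- were -1.12 (SE 0.30, adjusted p = 0.00342) and -1.37 (SE 0.30, adjusted p = 9.11e-04). They were as large or larger with libraries 20 to 27 as a covariate, -1.49 and -1.98, and still passed.

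Cdkn2c, which encodes p18INK4C and lies at chr4:109660876-109667189 on the minus strand, differed less. Its level was 29.6, 19.6 and 30.2 CPM in RC/+ and 41.5, 35.3, 43.6, 45.4 and 26.01 CPM in RC/-, and RC/- replicate 17 lay within the range of RC/+. The log2FC of 0.53 (SE 0.21, adjusted p = 0.0499) stood at the threshold, and with TMM factors it was 0.39 (adjusted p = 0.134). RC/- D18 libraries were at 29.6, 27.2, 24.8, 21.4 and 13.6 CPM, a log2FC against RC/- of -0.74 (SE 0.18, adjusted p = 0.00207). Without libraries 20 to 27, which leaves RC/- D18 replicates 18 and 19, it was -0.41 (adjusted p = 0.156). RC/- D53 was at 29.9 ± 4.62 CPM (SD, n = 5), with a log2FC of -0.35 (adjusted p = 0.164).

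The summed INK4 level was 14.1 ± 1.96 CPM per kb in RC/+ (SD, n = 3) and 26.8 ± 3.21 CPM per kb in RC/- (SD, n = 5). Edited cystic kidneys had 14.1 ± 2.12 (D18) and 15.7 ± 2.05 CPM per kb (D53, SD over 5 mice). Cdkn2a made up only 5.22% ± 1.12 of the sum in RC/-, with 41.6% ± 8.12 from Cdkn2b and 53.2% ± 8.58 from Cdkn2c. Collecting duct, macrophage and fibroblast markers moved between the same groups. Of the 5 collecting duct markers 4 passed as higher and 1 as lower in RC/- against RC/+, with a summed level of 1123 to 3172 CPM against 822 to 1099 CPM, and in D18 against unedited RC/- 4 were lower and 1 higher. In D53 against unedited RC/- only 2 were lower and 1 higher, at 1079 to 2131 CPM summed, and 2 were higher than in RC/+ D53. For macrophages 5 markers and for fibroblasts 3 passed as lower in each edited group against unedited RC/-. All 5 macrophage markers and 3 of the 5 fibroblast markers passed as higher in RC/-, with summed levels of 326 to 552 CPM against 178 to 192 CPM for macrophages and 2798 to 4478 CPM against 1308 to 1811 CPM for fibroblasts, and none was at 0. Their part in the INK4 result was not tested.

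Ccne1, the gene for cyclin E1 (chr7:38097984-38107534, minus strand), was the cyclin that rose in RC/-. It was at 3.88, 2.88 and 5.66 CPM in RC/+ and 10.1, 7.05, 11.002, 8.56 and 5.88 CPM in RC/-, without overlap. The log2FC was 1.04 (SE 0.33, adjusted p = 0.0153), a 2.06-fold higher level, and without RC/+ replicate 5 it was 0.81 (adjusted p = 0.107). RC/- D18 libraries, at 3.77, 3.55, 3.02, 1.88 and 1.42 CPM, were all below RC/-, with a log2FC of -1.67 (SE 0.29, adjusted p = 5.02e-05). RC/- D53 libraries, at 4.18, 2.73, 6.16, 5.32 and 6.68 CPM, overlapped RC/-.

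The log2FC of Ccne1 in RC/- D53 against RC/- was -0.79 (SE 0.29, adjusted p = 0.0413). It was -0.70 (adjusted p = 0.0613) with TMM factors, and with libraries 20 to 27 as a covariate it was 0.05 (adjusted p = 0.966). That covariate is estimated from RC/- D18 libraries alone, so the latter value is not a direct correction of D53. Leaving out RC/- replicate 13, 15 or 16 or RC/- D53 replicate 23, 24 or 26 also ended the call, with adjusted p values of 0.0548 to 0.139. RC/- D53 had more Ccne1 than RC/- D18 by a log2FC of 0.88 (95% interval 0.29 to 1.48), which did not pass over all genes (adjusted p = 0.223).

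The D-type cyclins were less affected. Ccnd2 (chr6:127125162-127152193, minus strand) was at 38.5, 32.03 and 26.4 CPM in RC/+ and 69.5, 47.003, 34.5, 43.4 and 44.4 CPM in RC/-, with only RC/- replicate 15 in the range of RC/+. Its log2FC of 0.54 (SE 0.22, adjusted p = 0.0569) passed without that replicate (0.65, adjusted p = 0.0259). In RC/- D18, at 33.1, 37.6, 39.6, 26.8 and 19.1 CPM, it was lower than in RC/- by a log2FC of -0.62 (SE 0.19, adjusted p = 0.0114). Without libraries 20 to 27 that value was -0.40 (adjusted p = 0.188). RC/- D53 libraries were at 28.5 to 45.7 CPM, and no difference from RC/- passed.

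Ccnd1, a D-type cyclin at chr7:144929931-144939925 on the minus strand, passed in none of the 8 comparisons. Its level was 168 ± 29.4 CPM in RC/+ (SD, n = 3) and 146 ± 12.3 CPM in RC/- (SD, n = 5), a log2FC of -0.19 (95% interval -0.48 to 0.10, adjusted p = 0.314). Of its exon bases 23.4% are shared with LTO1 on the opposite strand, which had 616 to 915 counts per library where Ccnd1 had at least 2937. Per length, Ccnd1 made up 90.96% ± 3.06 of the summed Ccnd1 and Ccnd2 level in RC/+ (SD, n = 3) and 86.1% ± 2.36 in RC/- (SD, n = 5), with 90.1% ± 2.16 in D18 and 89.02% ± 3.14 in D53 cystic kidneys (SD over 5 mice).

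Ccng1 (chr11:40748552-40755311, minus strand) also passed in none of the 8 comparisons. It was at 104 ± 3.94 CPM in RC/+ (SD, n = 3) and 111 ± 12.996 CPM in RC/- (SD, n = 5). The log2FC of 0.08 (95% interval -0.09 to 0.24, adjusted p = 0.485) was -0.06 with TMM factors. In both edited lines the RC/- libraries did not overlap their own RC/+ controls, with log2FC values of 0.18 (adjusted p = 0.483) and 0.14 (adjusted p = 0.473). Libraries were separated in this way for 5.76% of tested genes (D18) and for 11.6% (D53, Cdkn2b among them).

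**Figure D3:**
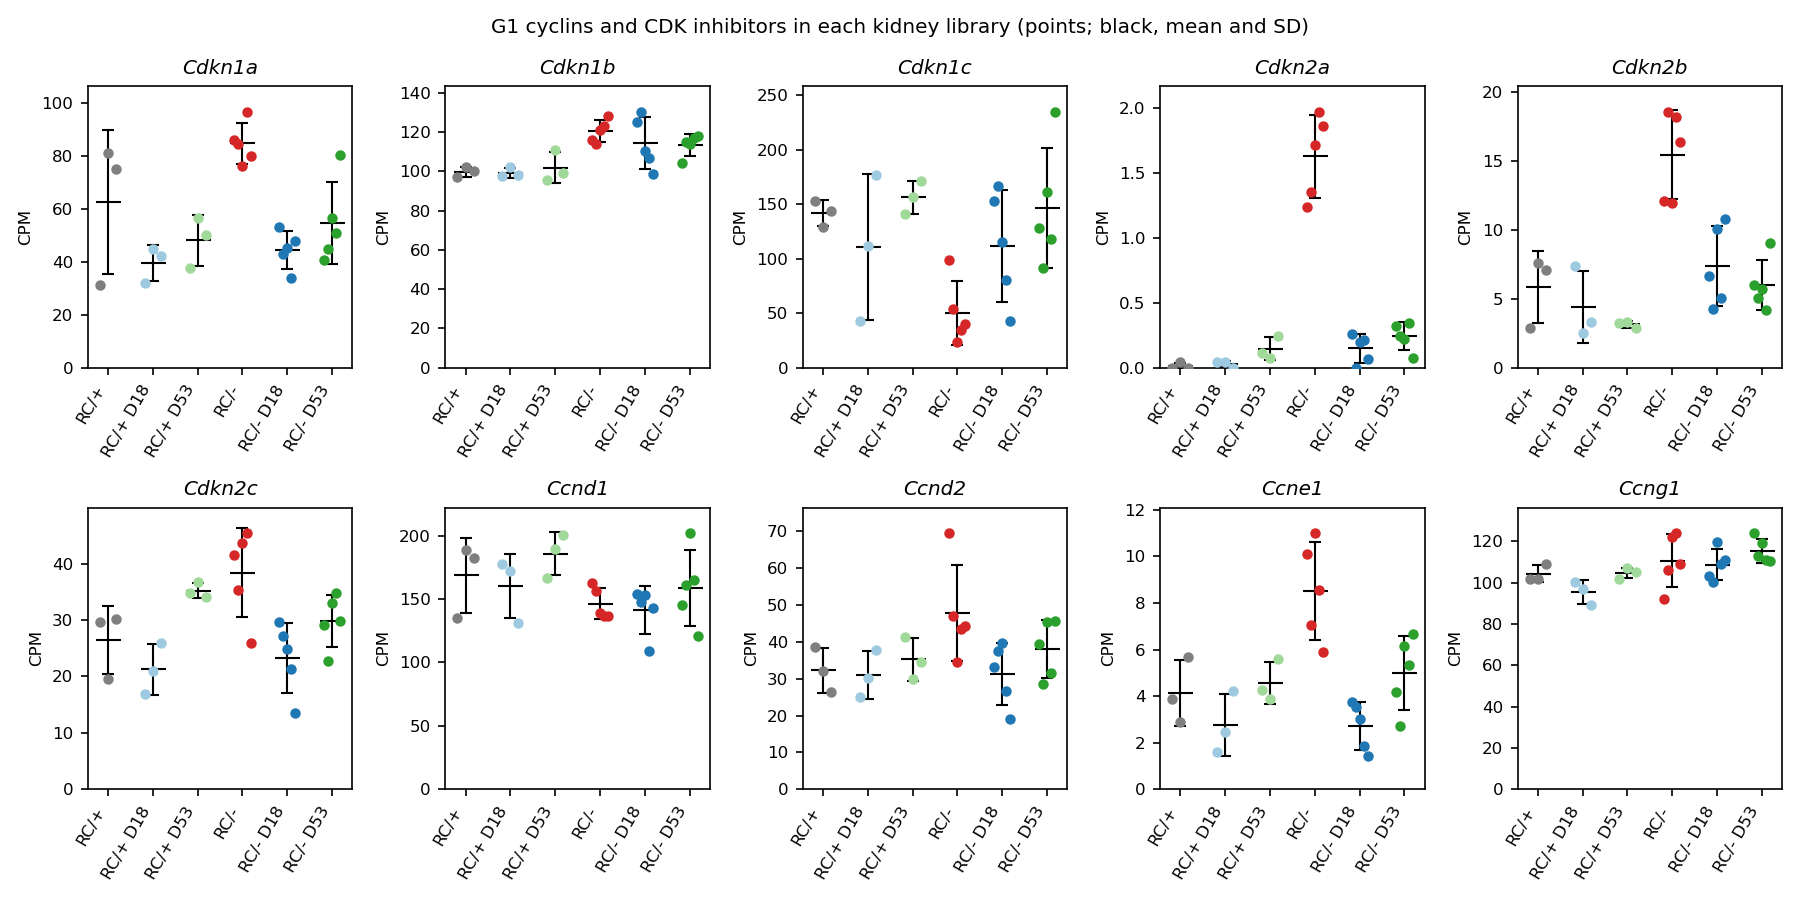
CPM of each member in each library (points) by group, with the group mean and SD in black, on linear axes from 0. RC/- libraries have the highest Cdkn2a counts of the series (1.24 to 1.97 CPM), while Cdkn1c spreads from 23.95 to 235 CPM over the RC/- groups.

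Order of the 6 groups by mean level showed where neighbours could be separated. RC/- ranked highest for 7 members (Cdkn1a, Cdkn1b, Cdkn2a, Cdkn2b, Cdkn2c, Ccnd2 and Ccne1) and lowest for Cdkn1c. For Cdkn2a and Cdkn2b its libraries did not overlap those of the next group, RC/- D53 and RC/- D18 respectively, and for Ccne1 the gap to RC/- D53 exceeded the larger SD (3.51 against 2.11 CPM) although the ranges overlapped. For Cdkn1a, Cdkn1b, Cdkn1c, Cdkn2c and Ccnd2 the gap between RC/- and its neighbour was smaller than the larger of the 2 SDs.

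Interaction contrasts tested whether the cystic difference was unequal between an edited line and the unedited kidneys. For Cdkn2a it was smaller in both lines, by a log2FC of -3.25 (SE 0.59, adjusted p = 4.47e-04) in D18 and -3.68 (SE 0.59, adjusted p = 3.76e-04) in D53. In D18, Cdkn2a did not pass with edgeR (adjusted p = 0.118) or DESeq2 (adjusted p = 0.0504). Cdkn1c had 1.75 (SE 0.61, adjusted p = 0.0496) in D18, which held neither with edgeR (adjusted p = 0.0538) nor without RC/+ D18 replicate 7 (1.18, adjusted p = 0.173), while in D53 it did not pass (adjusted p = 0.116). Thus 1 member was higher and 1 lower in D18, where 17.1% of all genes passed (6.31% higher and 10.8% lower, or with TMM factors 8.33% and 7.84%). In D53 1 member was lower, where 11.3% of all genes passed (4.73% higher and 6.55% lower, or with TMM factors 6.51% and 4.31%).

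Deletion of the motif in control kidneys called no member. In RC/+ D18 against RC/+, limma-trend, edgeR and DESeq2 called 0, 1 member (Cdkn1a, log2FC -0.56, adjusted p = 0.983) had an unadjusted p below 0.05 beside 4.49% of all genes, and 0.00443% of all genes were called. In RC/+ D53 against RC/+, the 3 tools called 0, 1 member (Cdkn2a) had an unadjusted p below 0.05 beside 2.33% of all genes, and 0% of all genes were called. RC/- D53 against RC/- D18 likewise gave 0 members by the 3 tools, with Ccne1 and Cdkn2c at an unadjusted p below 0.05 beside 13.3% of all genes, and 0.266% of all genes called. Pkd1 itself passed in none of these comparisons and had a log2FC of 0.21 (adjusted p = 0.173) in RC/- against RC/+.

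Other genes of the G1/S step were listed apart from the members. Of 25 such genes, 11 were higher and 2 lower in RC/- against RC/+ (8 and 3 with TMM factors), where 25.5% of all genes were higher and 12.2% lower, with a median log2FC of 0.34 beside 0.14 over all genes. E2f8, an E2F repressor, had 1.39 (SE 0.35, adjusted p = 0.00293) and Cks1b, a CDK-binding subunit, 0.92 (SE 0.28, adjusted p = 0.0116). The genes that fell were Rbl2 (-0.32, adjusted p = 0.00501), which encodes the pocket protein p130 of quiescent cells, and E2f5 (-0.21, adjusted p = 0.0247), which encodes an E2F that binds it.

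In RC/- D18 against RC/-, 17 of the 25 were lower and 3 higher (5 and 2 with libraries 20 to 27 as a covariate), beside 26.9% and 14.3% of all genes, with Cks1b at -1.22, E2f8 at -1.24, Rbl2 at 0.31 and E2f5 at 0.22. In RC/- D53 against RC/-, 6 were lower and 3 higher (4 and 4 with TMM factors, and 1 and 0 with that covariate), beside 18.9% and 11.3% of all genes. Cdk6 had -0.47 (SE 0.12, adjusted p = 0.00410) and Cdk4 -0.43 (SE 0.099, adjusted p = 0.00173), both kinases being partners of D cyclins, with Rbl2 at 0.25 and E2f5 at 0.23. Cdk4 also passed in the interactions, at -0.69 (adjusted p = 0.00444) in D18 and -0.56 (adjusted p = 0.0249) in D53. In the D18 interaction Fbxw7, a subunit of the ligase that degrades cyclin E, had -0.49 (adjusted p = 0.0384), and in the D53 interaction E2f4 had -0.33 (adjusted p = 0.0152). Of the 25 genes, 0 passed in either comparison within an edited line by limma-trend, edgeR or DESeq2, with 2 in D18 and 1 in D53 at an unadjusted p below 0.05 (8.91% and 13.3% of all genes).

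Targets of p53 other than Cdkn1a and Ccng1 were listed too. Of 20 genes, 12 were higher and 1 lower in RC/- against RC/+, beside 25.5% and 12.2% of all genes, with a median log2FC of 0.54. The other 7 did not pass, among them Mdm2 (0.07, adjusted p = 0.489). Pmaip1, which encodes the pro-apoptotic NOXA, rose from 5.47 to 39.2 CPM (2.78, SE 0.25, adjusted p = 5.25e-09), and Eda2r, a gene of the TNF receptor family, from 0.458 to 2.93 CPM (2.44, SE 0.26, adjusted p = 1.05e-07). Rrm2b, for a ribonucleotide reductase subunit, was the gene that fell (-0.20, adjusted p = 0.0465). In each comparison of edited with unedited RC/- kidneys 12 targets were lower and Rrm2b was higher, and in D53 7 were lower with libraries 20 to 27 as a covariate. Of all genes, 26.9% were lower and 14.3% higher in D18, and 18.9% and 11.3% in D53. Mdm2 did not pass there either (-0.03 in D18 and -0.04 in D53). Gdf15, a stress-induced cytokine gene, had -2.07 (adjusted p = 2.11e-09) in D18 and -1.33 (adjusted p = 2.85e-06) in D53, and Pmaip1 -1.75 and -1.19.

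Some p53 targets passed within the edited lines as well. In RC/- D18 against RC/+ D18, 2 were higher (0 by edgeR, 2 by DESeq2), beside 0.261% of all genes. They were Pmaip1 (1.39, adjusted p = 0.00924) and Eda2r (1.22, adjusted p = 0.0469). In RC/- D53 against RC/+ D53, 4 were higher (3 by edgeR, 4 by DESeq2), beside 2.45% of all genes. Pmaip1 was at 1.78 (adjusted p = 9.85e-05) and Gdf15 at 1.46 (adjusted p = 9.07e-05). The log2FC of Cdkn1a was 0.17 (95% interval -0.31 to 0.65) and 0.16 (95% interval -0.32 to 0.65) in the same comparisons. Interactions passed for 9 targets in D18 and 5 in D53, all lower, beside 10.8% and 6.55% of all genes as lower. Among them were Gdf15 (-1.54) and Pmaip1 (-1.39) in D18 and Eda2r (-1.69) and Tnfrsf10b (-1.09) in D53.

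Few genes of S phase and mitosis passed in RC/- against RC/+. Of 19 genes, 2 were higher, beside 25.5% of all genes. These were Tpx2, a spindle factor (0.94, adjusted p = 0.0221), and Mcm2, of the replicative helicase (0.52, adjusted p = 0.0283). All 19 had a positive log2FC, and their median was 0.61. With TMM factors 1 passed, and with only these groups in the model 8. In RC/+ D53 against RC/+ all 19 were positive too, with a median of 0.57, and 13 did not overlap between the groups (8.84% of all genes), but 0 passed by limma-trend, edgeR or DESeq2 and 0 had an unadjusted p below 0.05. Of the 19, 18 were negative in RC/- D53 against RC/+ D53. In RC/- D18 against RC/-, 15 were lower (1 with libraries 20 to 27 as a covariate), beside 26.9% of all genes. Plk1, a mitotic kinase, was at -1.20 (adjusted p = 0.00350) and Tpx2 at -1.15 (adjusted p = 0.00159). In RC/- D53 against RC/-, 0 passed by limma-trend, edgeR or DESeq2, where limma-trend called 30.2% of all genes. An unadjusted p below 0.05 was found for 1 of them, beside 39.2% of all genes, and the median was -0.27.

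**Figure D4:**
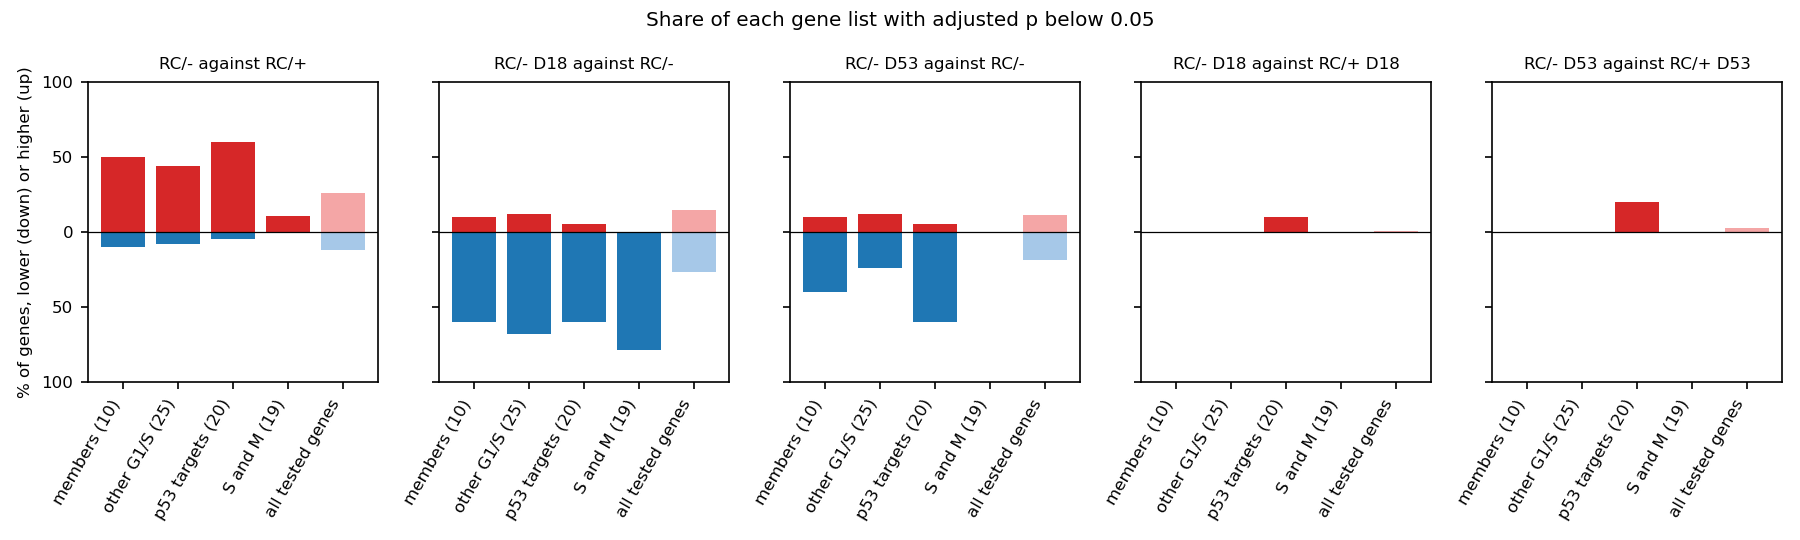
Percentage of each gene list that passed as higher (red, upward) or lower (blue, downward) in 5 comparisons, beside all tested genes (pale bars). Of the p53 targets, 12 of 20 were higher in RC/- and 12 of 20 lower in each edited against unedited RC/- comparison, while S phase and mitosis genes were lower in D18 (15 of 19, or 1 with libraries 20 to 27 as a covariate) but not in D53 (0 of 19).

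Across the 24 libraries, the members were most like different genes. These correlations of log2 CPM describe libraries that share groups and are given without a test. Cdkn2c was most like Plk1 and Bub1b (Pearson's r = 0.97 for both), and Ccne1 was most like Rrm1 and Lig1 (0.97 for both), all genes of mitosis or DNA synthesis. With group means removed, r was 0.95 and 0.96 for Cdkn2c and 0.96 and 0.92 for Ccne1. Between the members themselves the closest pair was Cdkn2c and Ccne1 (0.90, within groups 0.86).

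Cdkn2b followed Klrg2 (0.97) and Syk (0.95), Cdkn2a followed Il6st and Klc3 (0.94 for both), and Cdkn1c followed Sema3d (0.95) and Clec18a (0.94). Within groups the values for Cdkn2a were 0.51 and 0.41, those for Cdkn2b 0.91 and 0.87, and those for Cdkn1c 0.93 and 0.89. Cdkn1c and Ccnd2 had an r of 0.15 over all libraries but 0.85 within groups. Cdkn1a was most like Gars and Upk3bl (0.86 for both), Cdkn1b like Ptger4 (0.90) and Zfp846 (0.87), and Ccnd2 like Wdr70 (0.88) and Kdelr3 (0.87). Ccnd1 (Tnfsf10, 0.78, and Ston1, 0.74) and Ccng1 (Ubl3, 0.74, and Rab14, 0.73) had no gene above 0.78.

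The proliferation gene Top2a separated the members further. Its r with Cdkn2c was 0.96 and with Ccne1 0.89, and within groups 0.95 and 0.87. With Ccnd1 it was 0.10 (within groups 0.02), with Ccng1 0.14 (-0.19) and with Cdkn2b 0.03 (-0.52). Cdkn1c had an r of 0.72 with the podocyte gene Nphs1 over all libraries and of 0.51 within groups.

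**Figure D5:**
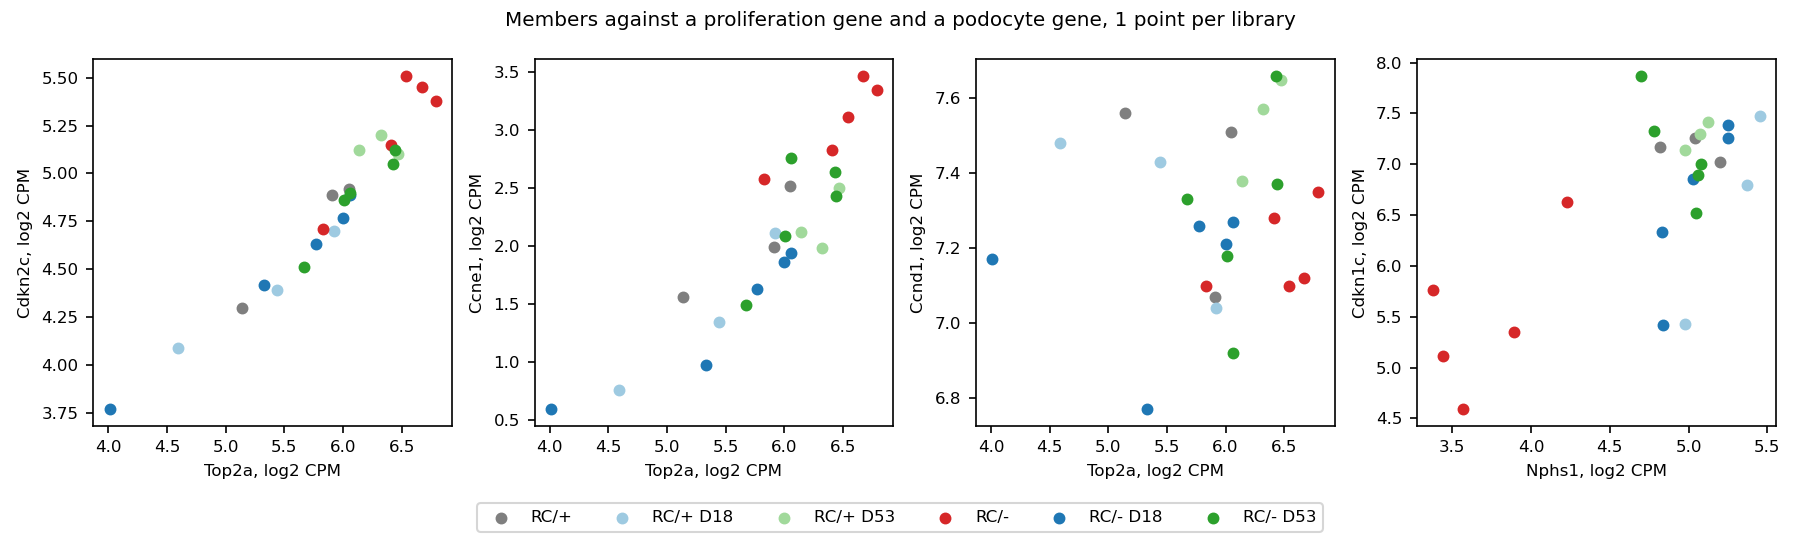
Log2 CPM of Cdkn2c, Ccne1 and Ccnd1 against Top2a and of Cdkn1c against Nphs1, with 1 point per library coloured by group. Cdkn2c and Ccne1 rise with Top2a (r = 0.96 and 0.89), Ccnd1 does not (r = 0.10), and the RC/- libraries have the lowest Nphs1 values, while their Cdkn1c values overlap those of RC/+ D18 and both edited RC/- groups.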

How the data were processed

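RNA of 24 kidneys was sequenced, 1 library per mouse. The authors trimmed paired reads with Trim Galore 0.6.3 and aligned them to GRCm38 with STAR 2.5.3a, whose gene counts used Ensembl models. The deposited values are raw read counts per gene, without normalization, in 54532 genes, and which strand column was kept is not given in the sources used here. Without strand, reads of overlapping genes on opposite strands cannot be told apart. The 343 rows without a symbol held at most 0.0261% of a library and stayed in the totals as genes. The number of unused columns of sample values was 0.

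Groups followed the genotype labels. Counts were scaled by total count to log2 CPM (edgeR 4.0.16, prior count 2), genes with a mean of at least -3 were kept, and limma-trend (R 4.3.3, limma 3.58.1) was fitted with 1 mean per group over all 24 libraries, after the study's methods, which state no model design. Tests were two-sided with Benjamini-Hochberg adjustment over 22570 genes and a threshold of 0.05, in 8 comparisons of groups and 2 interactions. Fits were tested on simulated data. Pairs of libraries within groups differed more than sampling noise (chi-square per degree of freedom 8.44 to 48.2 over 39 pairs). Levels per length used exon bases of GENCODE M21, which matched 54409 gene identifiers. Ratios of Cdkn2a rates used exact 95% intervals, which cover counting error only. Alternatives were TMM and DESeq2 1.42.0 size factors, no filter, edgeR's quasi-likelihood test, DESeq2, only the groups compared, sex read from Xist and Ddx3y (14 female, 10 male) or libraries 20 to 27 as a covariate, and each library left out.

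The members and gene lists were chosen with earlier results of these data known. Named are all members, Pkd1, for each list and comparison up to 2 genes with the highest and up to 2 with the lowest log2 fold change past the threshold, and the 2 genes most correlated with each member. Top2a, Nphs1 and Mdm2 were named besides, after their values were seen.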

Additional observations from a re-analysis of the deposited data

Results flagged for a closer look

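In the group of 5 RC/- D18 libraries, Ccnd1 was lowest in replicate 21, at 109 CPM, where the other 4 lay between 143 and 154 CPM. The gap took 0.764 of the range of the group, above Dixon's 95% critical value for 5 samples. It was the 1 value singled out among 30 sets of 5 libraries tested, where chance singles out about 1 in 20.

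In the main fit the cystic difference was unequal between edited and unedited kidneys for Cdkn2a, with interaction log2 fold changes of -3.25 in D18 and -3.68 in D53, and for Cdkn1c in D18, with 1.75. The Cdkn1c call stood at the threshold (limma-trend adjusted p = 0.0496) and held in 8 of 24 other fits. For Cdkn2a the D18 interaction did not pass with edgeR (adjusted p = 0.118) or DESeq2 (adjusted p = 0.0504). For Cdkn2a the RC/- against RC/+ difference was 4.18 in unedited kidneys, 0.93 in D18 and 0.49 in D53. For Cdkn1c it was -1.67 in unedited kidneys and 0.08 in D18.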

How the results depend on the processing

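The number of members called in RC/- D53 against RC/- was 5, and 3 with libraries 20 to 27 as a covariate, where Ccne1 turned from -0.79 to 0.05. In RC/- D53 against RC/+ D53 it was 0, and 1 with that covariate (Cdkn1b) or with only the groups compared (Cdkn2b). In the D18 interaction 2 members passed, 1 without a filter, with sex as a covariate, with only the groups compared or with DESeq2, and 0 with edgeR. In the D53 interaction 1 passed, and 3 with only the groups compared. Leaving out each library gave 5 to 7 members in RC/- against RC/+, 6 to 7 in RC/- D18 against RC/-, 4 to 5 in RC/- D53 against RC/-, 1 to 2 in each interaction, and 0 in every fit of the other 5 comparisons. The D18 interaction gave 1 member when any of RC/+ replicates 4 to 6, RC/+ D18 replicate 8, RC/- replicates 15 to 17 or RC/- D18 replicates 18 to 21 was left out. The D53 interaction gave 2 without RC/- replicate 13 or 17. Of 100 member values, 83 kept direction and side of the threshold in every fit that gave an adjusted p, counting a change of sign only where the value passed. DESeq2 gave no adjusted p for Cdkn2a in RC/- D18 against RC/+ D18 or RC/- D53 against RC/- D18. The causes of these changes were not tested. No paired analysis was made because the sample labels give no litter or other pairing. Depth limited Cdkn2a most, with at most 5 counts in any RC/+, RC/+ D18 or RC/+ D53 library.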
